A study of Mus musculus with 2 samples.

Results

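Cycling granule cell precursors are the dividing cells of the granule lineage in the embryonic cerebellum, and they were taken here from single-cell RNA sequencing of whole mouse cerebella at E16.5 of embryonic development. A cell was kept when its barcode carried at least 1000 unique molecular identifiers (UMIs, counts of distinct captured RNA molecules), at least 500 detected genes and at most 10% of UMIs from mitochondrial genes. A kept cell was called a cycling precursor when it carried at least 1 UMI of Atoh1, none of Eomes, fewer than 2 of Wif1, and at least 2 UMIs of Mki67 and Top2a together. The rule found 1497 such cells among 33294 kept cells, of which 1214 came from the control library and 283 from the mutant library. Because these 5 genes chose the cells, their levels are given below as a description only.

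Granule cell precursors arise in the rhombic lip, spread over the surface of the cerebellum as the external granule layer, and divide there in response to Sonic hedgehog before they leave the cycle and become granule neurons. Atoh1 is the basic helix-loop-helix factor that defines and maintains them. Mki67 encodes the proliferation marker Ki-67 and Top2a encodes the topoisomerase that untangles replicated chromosomes. Eomes marks unipolar brush cells, the other main late product of the rhombic lip, and Wif1 encodes a secreted Wnt inhibitor.

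The study set 1 library of cre-negative controls against 1 library of mutants that carried Blbp-cre together with the alleles Ctnnb1(ex3)fl/wt and Smarca4fl/fl and had lesions in the cerebellum. Floxed alleles of the controls are not named in the labels. In the mutants the Blbp promoter, used by radial glia and neural progenitors, drove a recombinase that removes the exon 3 whose loss stabilises beta-catenin, and that acts on both floxed copies of Smarca4, an ATPase of the BAF chromatin remodelling complex. The whole tissue was digested with papain and DNase, dead cells stained with 7-AAD were sorted out, and 40000 cells of each pool were loaded on a 10x 3' gene expression chip. Each library pooled 3 samples of 1 genotype, so there was 1 replicate per genotype, no spread between animals could be measured, and no comparison between the genotypes below has a test. All intervals are exact 95% intervals that cover counting error only. Those of gene levels and their ratios treat UMIs as independent, so they leave out differences between cells. They are too narrow where few cells hold most of the UMIs of a gene.

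The control library held 225512196 UMIs over 21457 barcodes and the mutant library 220565819 over 21596, with 16812 and 16482 cells kept at a median of 10261 and 9936.5 UMIs. The precursors were deeper than the libraries they came from, with a median of 18238.5 UMIs and 4662 genes per control precursor and 17932 UMIs and 4586 genes per mutant precursor. The libraries shared 123 barcode sequences. Of the control precursors 6 had a barcode that also occurred in the mutant library, of the mutant precursors 0 had one in the control library, and 0 were in both sets of precursors. No doublet step was part of the rule, and Scrublet called 123 control precursors (10.1%) and 15 mutant precursors (5.30%) doublets, against 6.06% and 5.45% of all kept cells. Free RNA was read in erythroid cells, defined as cells with over 50% haemoglobin UMIs. They numbered 666 and 778 and had a median of 17504 and 17425 UMIs, close to the depth of the precursors, so their level of a gene, in CPM (UMIs of the gene per 1e6 UMIs), is given beside that in the precursors. The rule itself let in 9 control and 3 mutant erythroid cells.

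The promoters of 4 genes that mark these cells are printed first, because a shared set of promoter elements is the known basis of their rise late in the cycle. Top2a and Mki67 are in the rule, Cdk1 is the kinase that drives entry into mitosis, and Ccnb1 is its cyclin B1 partner. Each sequence runs from 250 bases before to 50 bases after the RefSeq start of the gene, 5' to 3' on the minus strand of GRCm38.p6. They lie at chr11:99024140-99024439 for Top2a, chr7:135716330-135716629 for Mki67, chr10:69352863-69353162 for Cdk1 and chr13:100786437-100786736 for Ccnb1. Capitals mark the CCAAT box, bound by NF-Y, and the letters TTTGAA, the core of the cell cycle homology region bound by MuvB complexes, on either strand (ATTGG and TTCAAA on the other).
Top2a promoter: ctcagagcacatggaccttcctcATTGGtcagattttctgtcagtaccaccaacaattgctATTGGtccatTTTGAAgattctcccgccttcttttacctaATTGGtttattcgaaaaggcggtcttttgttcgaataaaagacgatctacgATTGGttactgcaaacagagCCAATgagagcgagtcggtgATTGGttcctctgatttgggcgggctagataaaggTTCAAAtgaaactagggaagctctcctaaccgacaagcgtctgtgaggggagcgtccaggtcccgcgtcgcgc
Mki67 promoter: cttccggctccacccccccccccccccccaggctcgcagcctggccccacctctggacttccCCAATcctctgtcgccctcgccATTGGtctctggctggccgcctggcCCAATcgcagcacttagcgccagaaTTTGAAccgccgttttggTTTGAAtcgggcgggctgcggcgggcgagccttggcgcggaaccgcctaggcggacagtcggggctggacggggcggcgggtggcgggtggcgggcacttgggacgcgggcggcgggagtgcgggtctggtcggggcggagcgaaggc
Cdk1 promoter: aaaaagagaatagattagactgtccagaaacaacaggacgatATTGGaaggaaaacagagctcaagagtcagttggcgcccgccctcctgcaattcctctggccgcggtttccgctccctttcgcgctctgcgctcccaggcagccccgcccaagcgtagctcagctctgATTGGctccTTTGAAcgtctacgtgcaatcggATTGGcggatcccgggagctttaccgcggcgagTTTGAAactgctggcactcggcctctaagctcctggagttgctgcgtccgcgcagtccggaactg
Ccnb1 promoter: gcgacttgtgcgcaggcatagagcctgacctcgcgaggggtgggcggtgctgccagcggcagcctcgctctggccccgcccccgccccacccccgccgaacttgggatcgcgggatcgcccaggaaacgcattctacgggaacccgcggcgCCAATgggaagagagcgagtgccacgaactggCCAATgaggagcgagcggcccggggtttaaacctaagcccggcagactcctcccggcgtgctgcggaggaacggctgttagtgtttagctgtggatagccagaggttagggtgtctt

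In these windows Top2a had 6 CCAAT boxes and 2 TTTGAA, Mki67 and Cdk1 had 3 and 2 each, and Ccnb1 had 2 and 0. Only these exact letters were searched, so the 0 for Ccnb1 does not say that its promoter lacks a cell cycle homology region. Both motifs occurred together in 51.9% of 52 promoters of the G2/M list, Mki67 and Top2a included. Of its 54 genes 47 were matched by symbol in the set of RefSeq promoters used here. The share was 11.8% of 34 promoters of the S phase list (31 of 43 genes matched). It was 0% of 23 promoters of granule lineage transcription factors (18 of 22 genes matched). Among all 32851 RefSeq promoters of this length the share was 6.95%. CCAAT, with or without TTTGAA, was in 75%, 67.6%, 60.9% and 37.4% of the same 4 sets, and TTTGAA in 65.4%, 17.6%, 13.0% and 17.9%. The motifs do not overlap one another in letters, and a match is a description of the window and not evidence of binding.

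Cycling precursors were 7.22% of kept control cells (95% interval 6.83% to 7.62%) and 1.72% of kept mutant cells (1.52% to 1.93%), so the mutant share was 0.238 times the control share (0.208 to 0.271). The rule narrowed the control cells from 3376 with Atoh1 to 2613 without Eomes, 2606 with low Wif1 and 1214 cycling, and the mutant cells from 1436 to 1077, 725 and 283. The Wif1 limit thus took 7 control cells and 352 mutant cells. Among cells that met the other limits, 46.6% of control cells (44.7% to 48.5%) and 39.0% of mutant cells (35.5% to 42.7%) were cycling, a ratio of 0.838 (0.734 to 0.954). This second ratio was 1.004 when the cells also had to carry at least 2 of the granule lineage factors Barhl1, Zic1 and Pax6, and 0.922 when every cell was thinned to 5000 UMIs, with an interval there of 0.773 to 1.096. The first ratio lay between 0.207 and 0.341 in every alternative tried. A share of a library does not give a number of cells per cerebellum, since cells of other kinds fill the rest of it.

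Related cells were fewer in the mutant library too. Non-cycling Atoh1-positive cells, with 0 UMIs of Mki67 and Top2a and otherwise the same limits, made up 6.16% of the control library and 2.20% of the mutant library, with a ratio of 0.357 (0.316 to 0.403). Cycling Eomes-positive cells made up 2.77% and 1.05%, a ratio of 0.379 (0.317 to 0.453). The intervals of both ratios lay above that of the cycling precursors. All cycling cells, of any lineage, were 25.5% and 14.4%, and the precursors were 28.4% of cycling control cells and 11.96% of cycling mutant cells. Cycling Atoh1-positive cells with 2 or more Wif1 UMIs, which the rule leaves out, numbered 2 in the control library and 96 in the mutant library. A UMI of Atoh1 was also found in 9.46% of control and 2.44% of mutant erythroid cells. The whole rule was met by 1.35% and 0.386% of erythroid cells, below the shares among all kept cells in both libraries.

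**Figure D1:**
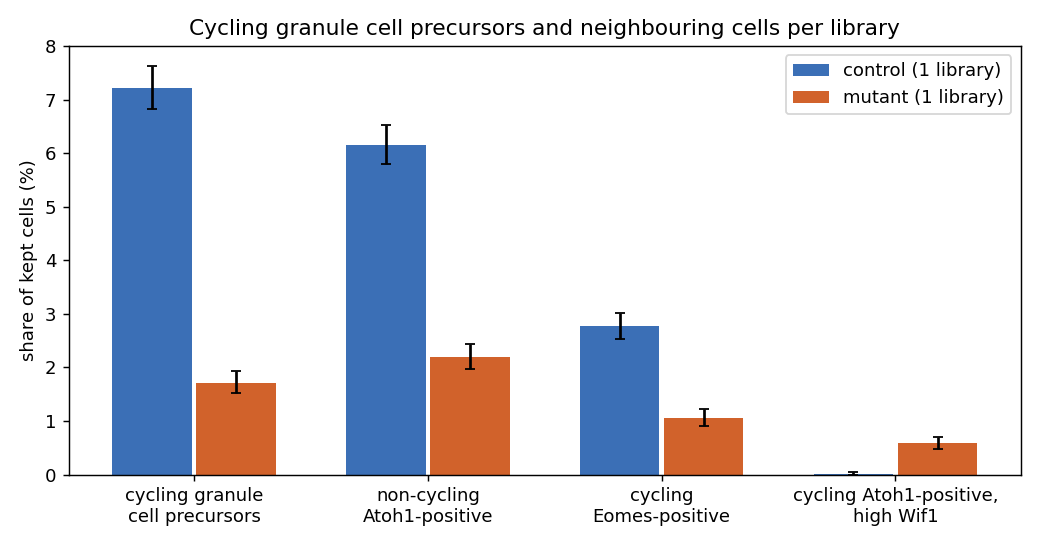
Share of kept cells, in percent, in the control and the mutant library for cycling granule cell precursors and 3 related sets of cells, with exact 95% binomial intervals as error bars. Cycling precursors go from 7.22% to 1.72%, and only the cells with high Wif1 are the larger set in the mutant library.

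Most cells carried 3 granule lineage factors that the rule did not use. Mfap4, a further marker of these precursors, had no UMI in 21.1% of control and 54.1% of mutant precursors. All 3 of Barhl1, Zic1 and Pax6, none of which the rule used, were detected in 979 control precursors (80.6%) and 187 mutant precursors (66.1%), and none of them in 9 and 7. Barhl1 stood at 191 CPM in control and 171 CPM in mutant precursors against 34.8 and 10.9 CPM in erythroid cells. Pax6 stood at 282 and 225 CPM against 57.3 and 13.9 CPM. Zic1 stood at 277 and 236 CPM against 81.1 and 85.3 CPM. Each of these 3 factors was therefore above its free RNA level in both libraries, and each was somewhat lower in the mutant precursors. They do not by themselves set the precursors apart from cycling Eomes-positive cells. Those cells held 168, 439 and 369 CPM of Barhl1, Zic1 and Pax6 in the control library. In the mutant library they held 142, 378 and 286 CPM. Top2a and Mki67 chose the cells, so their levels do not bear on the label and only describe the distance from the cycling limit. Top2a had a median of 11 UMIs in control and 9 in mutant precursors, and Mki67 a median of 3 in both.

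The thresholds cut through a continuous range. Cells with a single UMI of Mki67 or Top2a, just outside, numbered 357 and 80. Their summed G2/M genes, without Mki67 and Top2a, stood at 3229 CPM among control cells and 3599 CPM among mutant cells. Cells with exactly 2 UMIs, just inside, numbered 127 and 36 and stood at 4938 and 6179.7 CPM, and those with 10 or more numbered 739 and 161 and stood at 14508 and 14156 CPM. On the Wif1 side, 1 UMI was carried by 19 control precursors (1.57%) and 41 mutant precursors (14.5%). In the mutant library the Wnt targets, without Wif1, summed to 562 CPM in precursors with 0 Wif1 UMIs, 858 CPM with 1, and 900 CPM in the 20 cells with 2 that lie just outside. In the control library they summed to 406 CPM with 0 Wif1 UMIs, 545 CPM with 1, and 623 CPM in the 1 cell with 2. The rule uses Wif1, so these bins are a description only.

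Smarca4, on chr9:21616169-21704230 (GRCm38, plus strand), was detected in both libraries. It stood at 69.7 CPM in control precursors and 56.2 CPM in mutant precursors, a ratio of 0.806 (0.713 to 0.910), with a UMI in 67.8% and 62.2% of cells. Erythroid cells held 18.3 and 11.7 CPM. Ctnnb1, which encodes beta-catenin and lies on chr9:120929216-120960507 (plus strand), stood at 140 and 148 CPM, a ratio of 1.06 (0.981 to 1.14). Neither difference reached 1.5-fold, the size at which a gene is called different here. UMIs from the 3' end do not read whether exon 3 of Ctnnb1 was removed, and the floxed exons of Smarca4 were not given in the sources used here, so these levels do not say which precursors had recombined.

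Genes of the cycle itself stood at similar levels in both sets of precursors, which the rule in part brings about. It asks for at least 2 UMIs of Mki67 and Top2a in both libraries, and the G2/M genes rose with those UMIs, as given above. Of 43 S phase genes and 51 measured G2/M genes 0 were called in either direction. Among all 6711 genes tested 1.89% were called higher and 2.29% lower, so few calls are expected in lists of this size. The median log2 ratios of the S phase and G2/M genes were 0.11 and -0.05 beside 0.01 for all genes tested. The S phase genes summed to 4374 CPM in control and 4707 CPM in mutant precursors, a ratio of 1.08 (1.06 to 1.09), and the G2/M genes to 11988 and 11606 CPM, a ratio of 0.968 (0.960 to 0.976). S phase UMIs were 26.7% of all S and G2/M UMIs in control precursors (26.6% to 26.9%) and 28.9% in mutant precursors (28.6% to 29.1%), a difference of 2.12 percentage points. With every cell thinned to 5000 UMIs, a control precursor carried a median of 21 S phase and 51 G2/M UMIs and a mutant precursor 23 and 50. More G2/M than S phase UMIs were carried by 890 of 1191 thinned control precursors (74.7%) and 200 of 275 thinned mutant precursors (72.7%). Mcm4, a subunit of the replicative helicase, stood at 72.9 and 102 CPM, and Ccnb1 at 159 and 157 CPM.

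**Figure D2:**
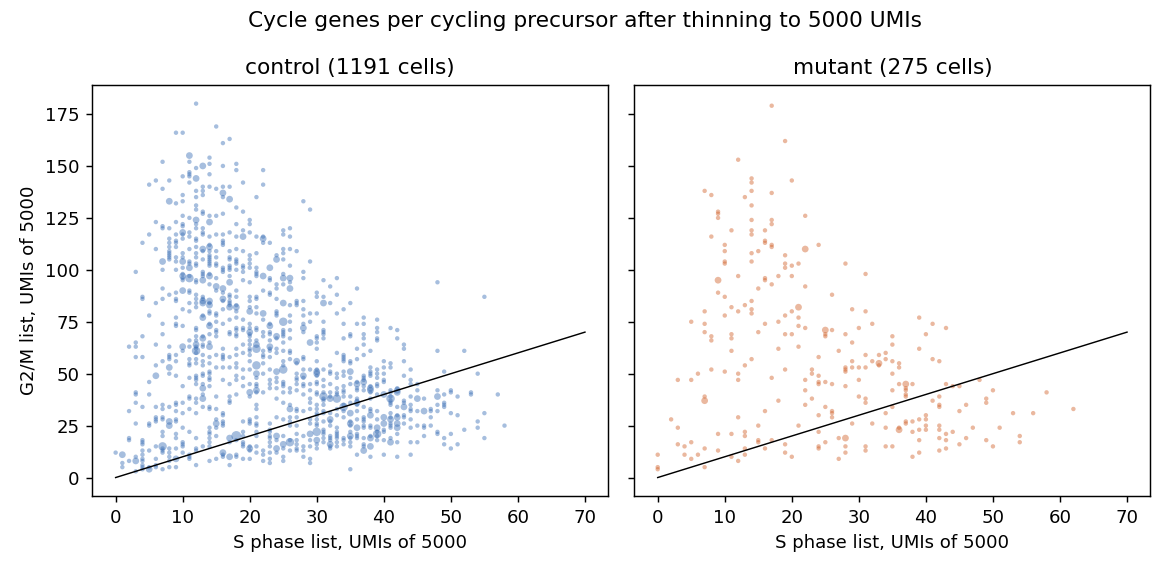
Each point is a cycling precursor thinned to 5000 UMIs, with its S phase list UMIs on one axis and its G2/M list UMIs on the other (1191 control and 275 mutant cells, line at equal numbers). Most cells of both libraries lie on the G2/M side of the line, 74.7% of control and 72.7% of mutant cells, and the clouds overlap.

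Across the transcriptome, 6711 genes had at least 20 CPM in the precursors of either library. Of these 127 (1.89%) were at least 1.5-fold higher in mutant precursors and 154 (2.29%) at least 1.5-fold lower. These shares are the background against which the counts from gene lists below are read. A gap between the erythroid cells at least as large and in the same direction accompanied 24 of the 127 higher and 6 of the 154 lower genes, and a gap at least 50% as large accompanied 53 (41.7%) and 26 (16.9%). Erythroid levels are therefore given beside the genes that the results turn on, and the part of free RNA in a difference was not tested beyond those values.

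**Figure D3:**
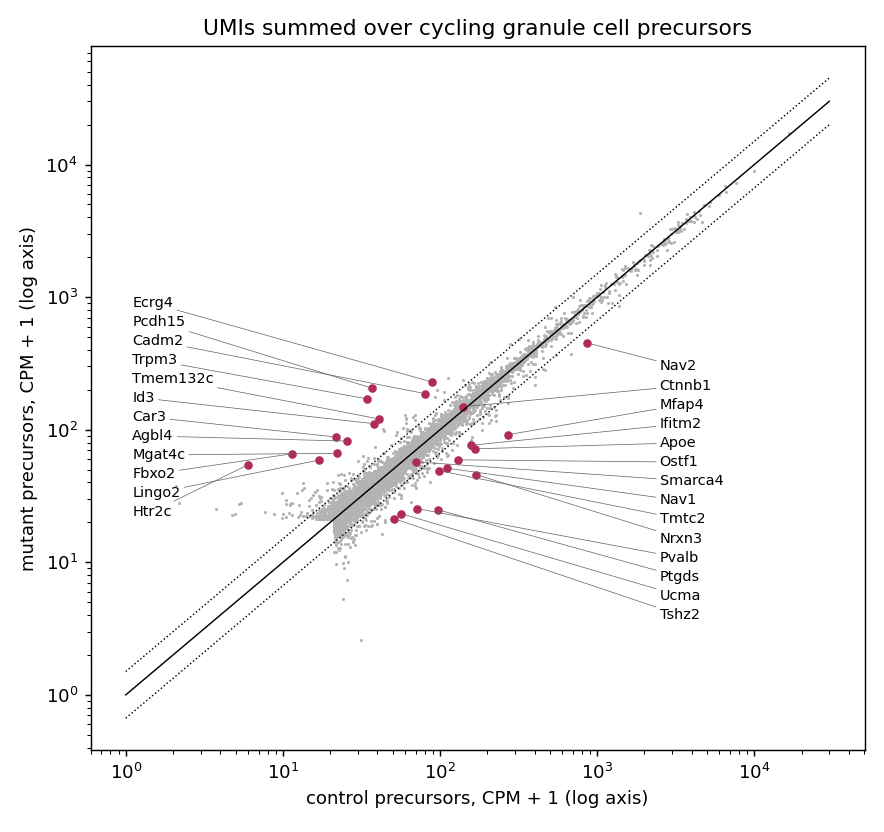
Level of each of 6711 genes in control (horizontal) and mutant (vertical) cycling precursors, in CPM plus 1 on log axes, with lines at equal levels and at 1.5-fold. Most genes lie between the outer lines, with Mfap4, Pvalb and Nrxn3 below them and Fbxo2, Pcdh15 and Car3 above.

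Mfap4 and Pvalb, genes typical of granule cell precursors, were lower in the mutant cells. Of 13 such genes other than transcription factors 9 were measured, 3 were called lower (Mfap4, Pvalb and Crabp1) and 0 higher, and the median log2 ratio was -0.28. Their sum was 834 CPM in control and 524 CPM in mutant precursors, a ratio of 0.629 (0.605 to 0.654), and the mutant-minus-control difference was -310 CPM in precursors and -70.4 CPM in erythroid cells. Mfap4, which encodes a microfibril-associated glycoprotein and is a marker of these precursors, lies on chr11:61485431-61488900 (plus strand). It stood at 269 CPM in control and 90.8 CPM in mutant precursors, a ratio of 0.337 (0.307 to 0.369), against 43.5 and 7.64 CPM in erythroid cells. A control precursor carried a median of 3 Mfap4 UMIs and a mutant precursor a median of 0, and 21.1% and 54.1% of them carried none. After thinning, 57.0% and 21.8% of precursors had a UMI, against 11.95% and 2.59% of erythroid cells. The ratio for Mfap4 was between 0.231 and 0.365 in every alternative.

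Pvalb encodes parvalbumin, a calcium-binding protein, and lies on chr15:78191114-78206400 (minus strand). It stood at 70.3 CPM in control and 24.4 CPM in mutant precursors, a ratio of 0.348 (0.290 to 0.414), against 4.95 and 0.454 CPM in erythroid cells, and was detected in 32.2% and 19.4% of precursors. Crabp1, a retinoic acid binding protein, was called lower at 30.5 and 1.60 CPM, but 70.6% of its control UMIs lay in 5 cells and it was detected in only 4.61% and 2.83% of precursors. Mfap4 and Pvalb were therefore lower across many cells, and Crabp1 in few.

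Of 22 granule lineage transcription factors 21 were measured, with a median log2 ratio of -0.20, and only Nhlh2 was called lower and only Meis2 higher. Their sum was 5365 CPM in control and 4581 CPM in mutant precursors, a ratio of 0.854 (0.843 to 0.866). Nhlh2, a helix-loop-helix factor of newly formed neurons on chr3:102010076-102015492 (plus strand), stood at 43.5 and 19.3 CPM, a ratio of 0.443 (0.360 to 0.541), against 15.7 and 4.31 CPM in erythroid cells. It had a UMI in 41.4% of control and 20.5% of mutant precursors. Neurod1, which drives granule cells out of the cycle and into differentiation, stood at 208 and 145 CPM, a ratio of 0.7002 (0.650 to 0.754), and was not called. Its erythroid level was 116 and 34.1 CPM, a larger gap than between the precursors, and its ratio became 1.08 when the erythroid level was subtracted. Meis2 stood at 31.2 and 62.0 CPM in precursors and at 27.1 and 67.4 CPM in erythroid cells. Levels of Nfia, a factor of granule neuron maturation, were 1379 and 1029 CPM, and those of Mycn, which carries the Sonic hedgehog signal to the cycle, 65.0 and 75.6 CPM.

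Some genes of granule neuron differentiation were lower in mutant precursors. Of 25 genes 20 were measured, 4 were called lower (Nhlh2, Rbfox3, Gap43 and Dcx) and 0 higher, and the median log2 ratio was -0.27. Gap43, a growth cone protein, stood at 465 and 282 CPM, a ratio of 0.606 (0.575 to 0.639), against 160 and 85.9 CPM in erythroid cells. Rbfox3 encodes the neuronal nuclear antigen NeuN and stood at 61.0 and 39.0 CPM. Dcx encodes doublecortin, a microtubule protein of migrating neurons, and stood at 70.3 and 46.0 CPM. Rbfox3 and Dcx were close to the limit, and their ratios of 0.640 and 0.655 became 0.686 and 0.710 without called doublets, short of the 1.5-fold call, and other alternatives also left them short of it. The mutant-minus-control difference of the summed list was -1779.8 CPM in precursors and -1563 CPM in erythroid cells, and the part of free RNA in it was not tested.

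The cells differed in how much Atoh1 they carried. A control precursor had a median of 2 Atoh1 UMIs with a maximum of 15, and a mutant precursor a median of 3 with a maximum of 19. Precursors with 6 or more were 9.39% of the control set (114 cells) and 20.5% of the mutant set (58 cells), a ratio of 2.18 (1.56 to 3.02), while those with a single UMI were 40.9% and 31.8%. After thinning, 3 or more UMIs were found in 4.53% and 11.6%, a ratio of 2.57 (1.60 to 4.05). Erythroid cells held 7.69 CPM of Atoh1 in the control and 1.97 CPM in the mutant library, and its part in the share of cells with 1 UMI was not tested.

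Neurod1 and Nhlh2 stood lower in cells with 6 or more Atoh1 UMIs than in cells with 1 in both libraries, while the differentiation list as a whole differed little between the bins. From cells with 1 Atoh1 UMI through 2 and 3 to 5 to those with 6 or more, Neurod1 stood at 298, 178, 168 and 76.9 CPM in control precursors. The same bins held 268, 208, 85.8 and 28.5 CPM of Neurod1 in mutant precursors. Nhlh2 went from 59.8 to 22.9 CPM in the control and from 31.4 to 4.75 CPM in the mutant set. Over the same bins the whole differentiation list summed to 12877, 12286, 12078 and 12245 CPM in control precursors and to 10454, 11412, 10809.5 and 10166 CPM in mutant precursors. Tubb3, a neuronal tubulin of that list, stood at 271, 308, 198 and 265 CPM over the mutant bins. Neurod1 and Nhlh2 were picked out after their values were seen and do not stand for the list. Mfap4 was nearly level over the bins in control precursors, at 272, 281, 268 and 241 CPM, and lower in each mutant bin, at 101, 116, 91.3 and 58.5 CPM. Pvalb was likewise lower in each mutant bin, with 82.1 CPM in control and 15.8 CPM in mutant precursors of the highest bin. Cells with more Atoh1 UMIs were also deeper, with a median of 16956 UMIs in the lowest and 20882.5 in the highest control bin, and 16369 and 20044 in the mutant ones.

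**Figure D4:**
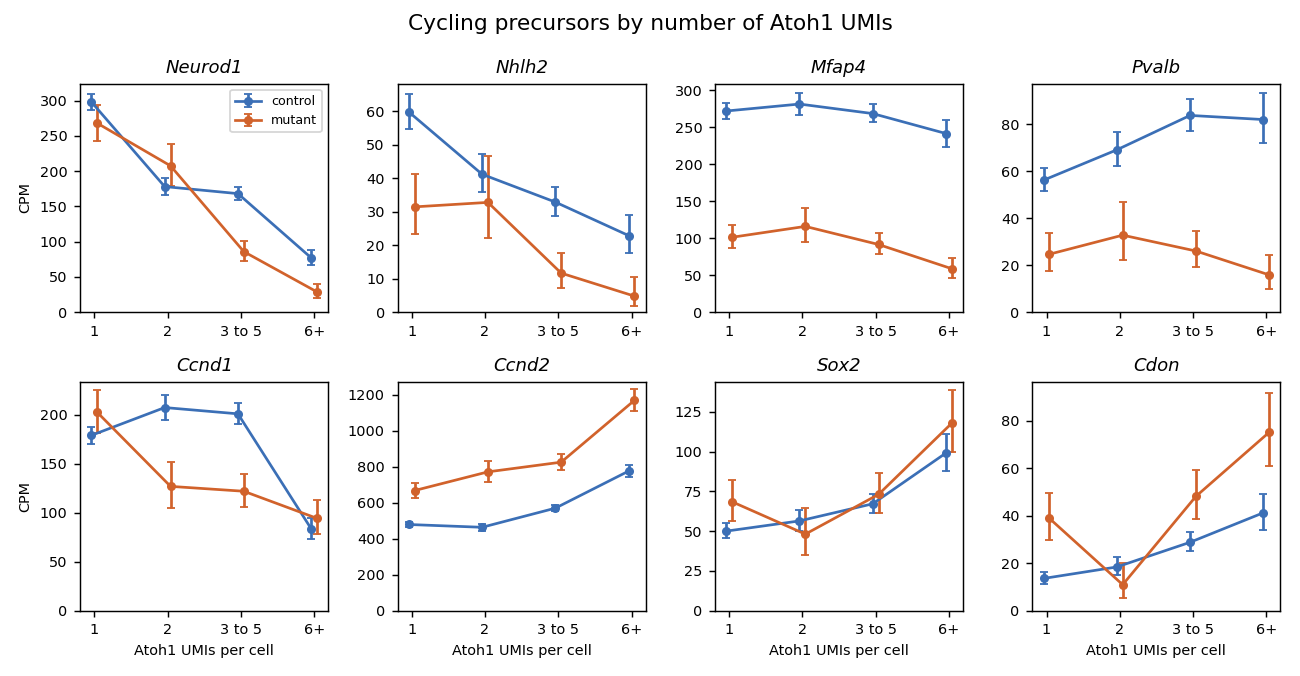
Level in CPM, with exact Poisson 95% intervals, of 8 genes in precursors grouped by their Atoh1 UMIs (1, 2, 3 to 5, 6 or more) in the control and mutant library. Neurod1 and Nhlh2 are lower in the highest than in the lowest bin of both libraries, and Mfap4 is lower in the mutant library in every bin, from 101 against 272 CPM to 58.5 against 241 CPM.

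Sonic hedgehog from Purkinje cells is the main mitogen of these precursors. Of 19 genes of its pathway 11 were measured, 1 was called higher and 0 lower, and the median log2 ratio was -0.28. Among the receptors and coreceptors, Ptch1, which is both the receptor and a target, stood at 80.1 CPM in control and 58.5 CPM in mutant precursors, a ratio of 0.730 (0.647 to 0.821). Smo, the signal transducer, stood at 58.0 and 46.2 CPM and the coreceptor Boc at 83.5 and 68.5 CPM. The coreceptor Cdon was the one called gene, at 22.4 and 45.5 CPM, a ratio of 2.03 (1.74 to 2.36), and its erythroid level was 6.28 and 5.37 CPM.

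Among the transcription factors of the pathway, Gli2, its main activator in granule precursors, stood at 65.6 and 45.1 CPM, a ratio of 0.688 (0.600 to 0.786). Gli3, mainly a repressor, stood at 80.7 and 63.7 CPM. Gli1, a direct target, stood at only 6.69 and 4.81 CPM, under the 20 CPM filter. Several pathway genes were thus lower by less than 1.5-fold, and their sum was 883 and 792 CPM, a ratio of 0.897 (0.869 to 0.927). The mutant-minus-control difference of this sum was -90.8 CPM in precursors and -8.08 CPM in erythroid cells.

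D-type cyclins, which take the mitogen signal to the cycle, differed in direction. Ccnd2, on chr6:127125162-127152193 (minus strand), stood at 538 CPM in control and 848 CPM in mutant precursors, a ratio of 1.58 (1.52 to 1.63), against 78.6 and 46.3 CPM in erythroid cells, where the order was the opposite. The ratio was 1.49, just short of the call, among precursors with at least 2 of Barhl1, Zic1 and Pax6. Ccnd1 stood at 180 and 140 CPM, a ratio of 0.777 (0.719 to 0.838), and was not called. Within each Atoh1 bin Ccnd2 was higher in the mutant set, from 668 against 479 CPM at 1 UMI to 1169 against 776 CPM at 6 or more. Of 20 cyclin and CDK genes 18 were measured and Ccnd2 was the one called. Of 12 CDK inhibitors and related growth arrest genes 7 were measured and only Gadd45g, a stress-induced growth arrest gene, was called, higher at 52.0 and 94.3 CPM, with 16.7 and 35.6 CPM in erythroid cells. Its ratio of 1.81 became 1.41, short of the call, with no limit on Eomes.

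The Wnt targets Axin2, Lef1 and Nkd1 were higher in mutant precursors, and in mutant erythroid cells as well. Of 14 targets, which leave out Wif1, 6 were measured, 3 were called higher and 0 lower, with a median log2 ratio of 0.66. They summed to 408 CPM in control and 603 CPM in mutant precursors, a ratio of 1.48 (1.42 to 1.54), and to 88.7 and 354 CPM in erythroid cells. The gap was therefore 195 CPM in the precursors and 265 CPM in the erythroid cells. Axin2, a scaffold of the beta-catenin destruction complex and a direct target, lies on chr11:108920349-108950783 (plus strand). It stood at 12.2 and 33.9 CPM, a ratio of 2.77 (2.29 to 3.33), and at 4.77 and 26.6 CPM in erythroid cells. Lef1, a transcription factor that binds beta-catenin, stood at 16.04 and 30.5 CPM in precursors and at 6.45 and 41.4 CPM in erythroid cells. Nkd1, a feedback inhibitor that binds Dishevelled, stood at 139 and 237 CPM in precursors and 24.3 and 108 CPM in erythroid cells.

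After thinning, an Axin2 UMI was found in 6.05% of control and 14.5% of mutant precursors, against 1.78% and 8.87% of erythroid cells. A Lef1 UMI was found in 6.47% and 12.4% of precursors against 2.91% and 12.7% of erythroid cells. Lef1 was thus detected about as often in mutant precursors as in mutant erythroid cells. With the erythroid level per cell subtracted from each precursor, the ratio of the list went from 1.48 to 0.967. That of Axin2 went from 2.77 to 1.34 and that of Nkd1 from 1.71 to 1.21. That subtraction assumes that precursors took up as much free RNA as erythroid cells did. The 8 markers of the mutant lesions, of which the rule limits Wif1, summed to 120 CPM in mutant precursors and 359 CPM in mutant erythroid cells. For these markers the erythroid level overstated that of the precursors, while other marker lists differed in either direction. Whether the assumption holds for the Wnt targets was not tested. A higher level of Wnt targets made by the precursors themselves and free RNA from other cells of the mutant library cannot be told apart at these levels.

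**Figure D5:**
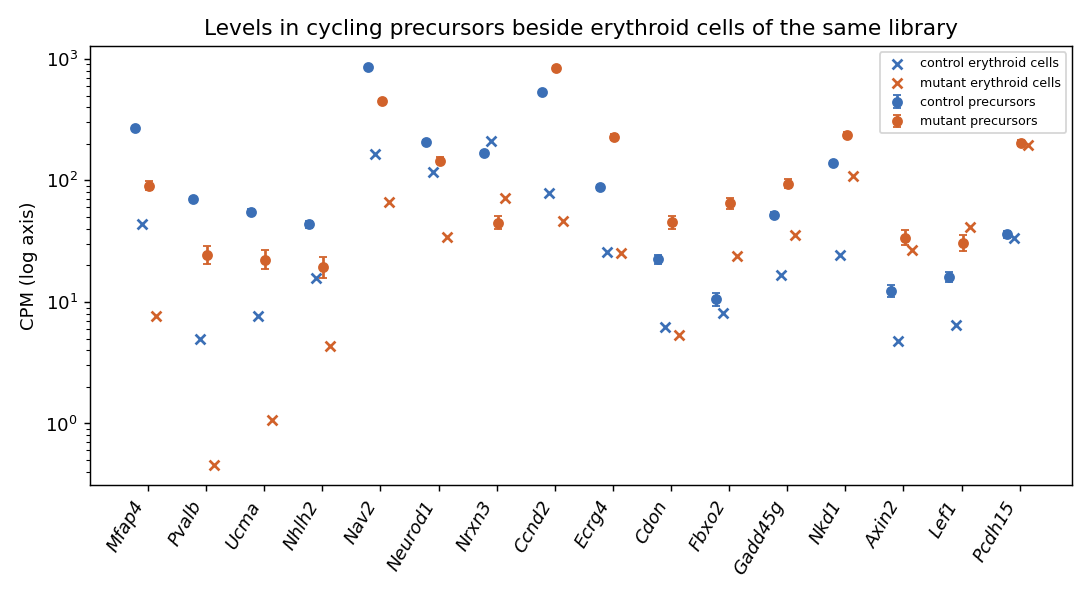
Level of 16 genes in CPM (log axis) in cycling precursors (circles) and erythroid cells (crosses) of the control and mutant library. For Mfap4, Pvalb, Ucma, Nav2 and Ccnd2 the precursors lie well above the erythroid cells in both libraries. For Pcdh15 and Nrxn3 the erythroid cells reach or nearly reach the precursors in both libraries, and for Lef1 only in the mutant library.

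The measured subunits of the BAF and PBAF complexes differed by less than 1.5-fold, with the exception of Brd7. Of 28 subunit genes 21 were measured, and the median log2 ratio was -0.01. Smarca2, the alternative ATPase, stood at 72.6 and 69.4 CPM. The DNA-binding subunits Arid1a and Arid1b stood at 80.8 and 75.4 CPM and at 100 and 89.1 CPM. Brd7, a bromodomain subunit of PBAF, was the called gene at 105 and 168 CPM, a ratio of 1.60 (1.48 to 1.73), with 17.5 and 69.5 CPM in erythroid cells and a ratio of 1.19 after subtracting them. In both precursors and erythroid cells Brd7 was thus higher in the mutant library.

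Of 13 Notch pathway genes 7 were measured and 0 were called, with a median log2 ratio of 0.11. Hes1 and Hes6, a target and a neurogenic relative, stood at 35.2 and 43.0 CPM and at 209 and 258 CPM, and the target Hey1 stood at 54.7 and 41.2 CPM. Of 13 BMP response and Id genes 8 were measured and 2 were called, both higher. Id3, an inhibitor of helix-loop-helix factors, stood at 36.7 and 110 CPM, with 52.6% of the mutant UMIs in 5 cells and 35.98 and 81.9 CPM in erythroid cells. Msx1, a homeobox target of BMP signals in the roof plate, stood at 9.94 and 22.5 CPM, and its ratio of 2.26 became 1.44, short of the call, with at least 3 Atoh1 UMIs. Of 12 p53 targets and apoptosis genes 3 were measured, of 12 stress and dissociation genes 6 and of 13 hypoxia and glycolysis genes 6, and 0 in these 3 lists were called. The last of them had the highest median of the 3, a log2 ratio of 0.27, and Ldha, lactate dehydrogenase A, stood at 466 and 599 CPM.

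The largest differences by the naming rule, among genes at 50 CPM or more, separated into genes spread over many precursors and genes held by few. Among the lower genes, Ucma, on chr2:4976122-4985748 (plus strand), stood at 55.4 CPM in control and 22.3 CPM in mutant precursors, a ratio of 0.402 (0.332 to 0.483), with 7.69 and 1.06 CPM in erythroid cells. Nav2, a neuron navigator that acts on the cytoskeleton in axon growth, lies on chr7:48908716-49610090 (plus strand). It stood at 864.5 and 450.2 CPM, a ratio of 0.521 (0.500 to 0.543), with 165 and 66.2 CPM in erythroid cells, and its relative Nav1 at 109 and 50.3 CPM. Nav2 was detected in 96.1% of control and 84.8% of mutant precursors. Ostf1, Ifitm2, Tshz2 and Tmtc2 had ratios of 0.451, 0.483, 0.406 and 0.495. Nrxn3, a synaptic adhesion gene, stood at 168 and 44.9 CPM and Apoe, the lipid carrier of glia and macrophages, at 167 and 70.8 CPM, both below their erythroid levels of 213 and 72.1 CPM and of 242 and 113 CPM. Ptgds, a prostaglandin synthase of the meninges and choroid plexus, stood at 96.3 and 23.9 CPM, with 90.8% of the control UMIs in 5 cells, and its direction reversed to a ratio of 2.95 without called doublets.

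Among the higher genes, Car3, a carbonic anhydrase on chr3:14863512-14872523 (plus strand), stood at 20.7 and 87.2 CPM, a ratio of 4.22 (3.71 to 4.79), and was nearly absent from erythroid cells at 0.530 and 0.302 CPM. Of control and mutant precursors 18.9% and 19.1% had a Car3 UMI, and 10 or more UMIs were carried by 4 control and 12 mutant precursors, with a maximum of 18 and 81. After thinning, 8.396% and 11.3% had a Car3 UMI, a ratio of 1.34 (0.867 to 2.03), so a difference in the share of cells was not detectable at this depth. Of the mutant Car3 UMIs 53.2% lay in 5 cells. Ecrg4, which encodes the secreted peptide precursor augurin, stood at 87.8 and 228 CPM, a ratio of 2.60 (2.42 to 2.78), with 44.7% of the mutant UMIs in 5 cells and 26.0 and 25.3 CPM in erythroid cells. Its ratio was 1.496 among precursors with at least 2 Atoh1 UMIs and 1.27 when cells were thinned before the rule, both short of the call.

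Fbxo2, a subunit of a ubiquitin ligase for glycoproteins, stood at 10.5 and 64.9 CPM, a ratio of 6.19 (5.26 to 7.30), with 8.13 and 23.97 CPM in erythroid cells. Pcdh15, a protocadherin, stood at 36.1 and 205 CPM in precursors and at 33.4 and 196 CPM in erythroid cells, which leaves little between them. Tmem132c and Lingo2 had ratios of 3.01 and 3.61, and their mutant erythroid levels of 116 and 96.2 CPM were near or above the 120 and 58.1 CPM of mutant precursors. Agbl4, Mgat4c and Cadm2 had ratios of 3.32, 3.10 and 2.36. Htr2c and Trpm3, a serotonin receptor and a cation channel that are both abundant in choroid plexus, had ratios of 10.7 and 5.10, with 96.7% and 51.7% of their mutant UMIs in 5 cells.

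Markers of other cell types were present at uneven levels. The 5 choroid plexus markers summed to 1994 CPM in control and 4541 CPM in mutant precursors, against 373 and 381 CPM in erythroid cells, and at least 3 of them were detected in 46 and 26 precursors. Ttr, the transthyretin of the choroid plexus, made up most of that sum, at 1859 and 4338 CPM, and 63.1% and 94.1% of its UMIs lay in 5 cells. The 8 markers of the mutant lesions summed to 11.6 and 120 CPM in precursors and to 11.1 and 359 CPM in erythroid cells, and at least 3 of them were detected in 1 control and 25 mutant precursors. Roof plate and rhombic lip markers summed to 78.5 and 140.5 CPM, with Gdf7 at 0 in control and Rspo1 at 0 in mutant precursors. Microglial markers summed to 41.0 and 6.42 CPM, with 35.8 and 13.9 CPM in erythroid cells, and fibroblast markers to 52.9 and 20.3 CPM, with 152 and 54.2 CPM in erythroid cells. Markers of the PTF1A lineage and GABAergic interneurons summed to 15.3 and 12.1 CPM, with Kirrel2, Pax2 and Slc6a5 at 0 in mutant precursors. Unipolar brush cell lineage markers, with Eomes at 0 by the rule, summed to 256 and 302 CPM, with 91.0 and 69.9 CPM in erythroid cells. At least 3 of these were detected in 127 control (10.5%) and 53 mutant precursors (18.7%). Radial glia and astroglia markers summed to 884 and 1009 CPM, and erythroid cells held 764 and 836 CPM of them. An alternative left out the precursors that carried 3 or more markers of another type, which kept 1096 control and 231 mutant precursors. It did not use the lists of radial glia and astroglia, roof plate and rhombic lip, unipolar brush cells or erythroid cells. At least 3 radial glia and astroglia markers were carried by 762 control and 172 mutant precursors. In this alternative the ratios were 0.345 for Mfap4, 0.359 for Pvalb, 0.462 for Nhlh2, 1.58 for Ccnd2 and 4.68 for Car3. Each was on the same side of 1.5-fold as before, and 97 genes were called higher and 161 lower. The part of other cell types in the remaining differences was not tested.

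The same comparison in non-cycling Atoh1-positive cells called 731 of 6980 genes higher (10.5%) and 305 lower (4.37%). Of the 127 genes higher in cycling precursors 101 (79.5%) were also called higher there, which is 13.8% of the calls in non-cycling cells, and of the 154 lower genes 99 (64.3%) were also called lower, 32.5% of those calls. Mfap4 stood at 442 CPM in control and 68.6 CPM in mutant non-cycling cells and Pvalb at 174 and 17.1 CPM, so both genes were lower in the mutant library in cycling and non-cycling cells. The levels of Mfap4 were thus higher in non-cycling than in cycling control cells, and lower in non-cycling than in cycling mutant cells. The non-cycling sets differed in other genes too. Fstl4 and Rgs6, markers of the mutant lesions, stood at 0.914 and 3.50 CPM in control and 194 and 94.3 CPM in mutant non-cycling cells. Mutant cycling precursors held 36.9 and 19.1 CPM of them. Pax6 stood at 268 CPM in control and 120 CPM in mutant non-cycling cells. The part of such differences in make-up was not tested.

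Against the non-cycling cells of their own library the precursors differed as the rule makes them differ, and this is given as a description. In the control library 8.79% of 6859 genes were at least 1.5-fold higher and 3.51% lower in cycling precursors, and in the mutant library 9.8% and 13.1% of 7145 genes. Among the genes with high ratios, Esco2, a cohesin acetyltransferase of S phase, had a log2 ratio of 5.53 in the control library and 5.87 in the mutant library. Prc1, which bundles the central spindle, had 4.77 and 4.31, and Plk1, the Polo kinase of mitosis, 4.73 and 5.04. Among those with low ratios, Crabp1 had -2.59 and -1.25, and Mapt, the tau protein of axons, -1.29 and -2.08. Histone Hist1h2ap, whose RNA mostly lacks a poly(A) tail and is captured poorly by oligo-dT, stood at 276 and 444 CPM in control and mutant precursors.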

How the data were processed

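Gene expression was measured by 10x 3' v3.1 single-cell sequencing of 1 control and 1 mutant library. The authors deposited UMI counts per gene and barcode, made with Cell Ranger 7.0.1 on mm10, per the submitters' processing notes; the annotation release and the counting of intronic reads were not given in the sources used here. Counts per library ranged from 220565819 to 225512196 UMIs. Of 32285 gene IDs, 32158 were found in GENCODE M21, which gave coordinates (GRCm38); promoters came from RefSeq.

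From the deposited counts, cells were filtered and chosen by the rule in the report, with no doublet step. UMIs of the chosen cells were summed per library and divided by all their UMIs (CPM). With 1 library per genotype no test was run: a gene with 20 CPM or more in at least 1 library was called different at 1.5-fold on the CPM scale plus a pseudocount of 1 CPM. Log2 ratios are of CPM plus 1. Ratios carry exact 95% intervals from the counts (Poisson for levels, binomial for shares), which cover counting error only. They say nothing of differences between animals or, for gene levels, between cells.

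The genes named are the 5 of the rule, the targeted Smarca4 and Ctnnb1, the 4 of each list with the largest absolute log2 ratio at 20 CPM or more, the 12 largest differences each way at 50 CPM or more, and the 10 largest each way against non-cycling cells; other list and marker genes were named after their values were seen. The members and lists were chosen with earlier results of these data known. For shares compared across depth, cells were thinned to 5000 UMIs, which left out 23 control and 8 mutant precursors. Counts for the comparison of mutant with control precursors (6467 genes) were also simulated as Poisson sums from 1 pooled profile. All 50 genes at each of the true ratios 4, 2, 0.5 and 0.25 were called in the right direction and 0 of 6267 equal genes were called. The simulated counts held no variation between cells or animals, so they check the calculation and give no rate of false calls for these data. Software was Python 3.11.15 with numpy 2.4.6, scipy 1.17.1, pandas 2.3.3, scanpy 1.11.5 (Scrublet) and matplotlib 3.10.9. Alternatives covered the cell filter, doublets, thinning, each threshold of the rule, scaling, the filter on low levels and the pseudocount. A further 4 were chosen after the data were seen. They were Atoh1 of at least 3, at least 2 of Barhl1, Zic1 and Pax6, no cells with 3 or more markers of another type, and subtraction of the erythroid level. The marker alternative did not use the lists of radial glia and astroglia, roof plate and rhombic lip, unipolar brush cells or erythroid cells.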

Additional observations from a re-analysis of the deposited data

Results flagged for a closer look

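In 6 of the genes with the largest differences, cycling precursors lay above non-cycling Atoh1-positive cells in one library and below them in the other. With 1 library per genotype the difference was not tested. Log2 ratios of cycling over non-cycling cells were, in the control and the mutant library, -0.71 and 0.40 for Mfap4, -1.30 and 0.49 for Pvalb, and -0.60 and 1.47 for Ucma. For Mfap4, Pvalb and Ucma the mutant level was below the control level in both kinds of cell. Mutant non-cycling cells also held more of the lesion markers Fstl4 and Rgs6 than mutant cycling precursors, as given above. The ratios were 0.36 and -1.03 for Tmem132c, -0.53 and 1.68 for Htr2c, and 3.05 and -0.34 for Ptgds. Of the mutant Htr2c UMIs in cycling precursors 96.7% lay in 5 cells, and of the control Ptgds UMIs 90.8%. Tmem132c stood at 116 CPM in mutant erythroid cells.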

How the results depend on the processing

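The share of cycling precursors was lower in the mutant library in every alternative; its ratio of 0.238 became 0.341 with thinned cells, 0.274 and 0.327 with at least 2 and 3 Atoh1 UMIs, 0.318 with no Wif1 limit and 0.207 with Wif1 at 0. The ratio of cycling shares among Atoh1-positive cells, 0.838, became 1.004 with at least 2 of Barhl1, Zic1 and Pax6. The difference in S phase share, 2.12 percentage points, became 2.60 without doublets, 1.498 with thinned cells, 3.61 and 3.98 with at least 2 and 3 Atoh1 UMIs, 1.45 with Wif1 at 0, 1.54 with no Eomes limit and 1.43 under 1% haemoglobin. The Wnt target ratio of 1.48 became 1.57 with thinned cells, 1.42 with at least 2 Atoh1 UMIs, 2.41 with no Wif1 limit, 1.38 with Wif1 at 0, 1.32 without cells carrying markers of other types and 0.967 with the erythroid level subtracted. Counts of higher and lower genes, 127 and 154, became 414 and 357 with thinned cells (521 and 177 precursors), 781 and 1009 with no filter on low levels, 53 and 69 at 50 CPM, 132 and 231 with the erythroid level subtracted (36.4% of calls higher against 45.2%), and 149 and 220 without mitochondrial, ribosomal and haemoglobin genes. With no Wif1 limit 374 were higher and 161 lower, so that 69.9% of calls were higher. Smarca4 kept a ratio between 0.779 and 0.878, Mfap4 between 0.231 and 0.365, Pvalb between 0.262 and 0.391, and Ccnd2 between 1.49 and 1.69.

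Ptgds turned to 2.95 without doublets and 1.70 without cells carrying markers of other types, and Htr2c to 0.736 with thinned cells. With the erythroid level subtracted, Lef1 and Lingo2 turned to 0, Meis2 to 0.518 and Tmem132c to 0.735. Counts that fell below 0 in the subtraction were set to 0, so the 0 of Lef1 and Lingo2 is a floor and not an estimated ratio. The cause of these changes was not tested. A change of direction was counted as a reversal for genes and lists only where the main ratio was at least 1.5-fold, a limit set after the values were seen: of 2371 values over the alternatives 105 changed direction, 7 of them from a called ratio and 98 from a smaller one, such as Neurod1, 0.7002 to 1.08. No paired analysis was possible because each genotype had 1 library. With 283 mutant precursors, levels near 20 CPM can rest on few cells. Actr1b, for example, had 115 mutant UMIs at 20.5 CPM. Pooled animals leave the spread between them unmeasured.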
